A study of Canis lupus familiaris with 39 samples.

Results

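Troponin is the calcium switch of striated muscle, a complex of troponin T, troponin I and troponin C that exists in cardiac, slow and fast forms. The genes examined were TNNT1, TNNT2, TNNT3, TNNI1, TNNI2, TNNI3, TNNC1 and TNNC2, 8 in all. A probeset, which is a group of short probes read as 1 measurement, was counted as a member when its single gene symbol in the array's annotation was one of these. This gave 13 of the 42860 probesets, for 7 of the 15115 gene symbols on the array. TNNT2 was read by 3 probesets, TNNT1, TNNT3, TNNI2 and TNNC1 by 2 each, and TNNI3 and TNNC2 by 1 each, and the first probeset of a gene is the one with the highest mean over all arrays. No probeset carried the symbol of TNNI1, slow troponin I, which was not analysed here.

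Pathologically normal organs of 4 dogs were profiled on Affymetrix Canine Version 2.0 arrays. The dogs were a pair of beagles and a pair of mixed breed animals, of both sexes and varying ages, the youngest 3 months old. The 10 groups are brain (cerebrum), heart, jejunum, kidney, liver, lung, peripheral lymph node, pancreas, skeletal muscle and spleen, each with 4 arrays except pancreas, which has 3. The labels name neither the chamber of the heart nor the muscle that was sampled. The deposited values are on a log2 scale that is relative to the rest of each array: array medians lay between 3.95 and 4.11, and all values between 2.61 and 14.74. A difference in such a value between organs cannot tell fewer muscle cells from less RNA per cell, and a p-value here speaks only for the scatter among these arrays. Where one side of a difference lies near the array median, with no call of detection, it is a difference of signals, and no fold of transcript is given for it. A probeset is said to be called where its adjusted p was below a false discovery rate of 0.001 over all probesets.

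Troponin sits on the actin filament together with tropomyosin. Troponin C binds calcium, troponin I blocks the contact of actin with myosin at rest, and troponin T anchors both to tropomyosin. Adult heart muscle is known for TNNT2 and TNNI3, slow skeletal fibres for TNNT1 and TNNI1, and fast skeletal fibres for TNNT3, TNNI2 and TNNC2. TNNC1 serves both heart and slow fibres.

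The organ labels were checked against marker genes of each organ. Of 9 measured cardiac markers, 8 had their highest mean in heart, and of 8 measured skeletal muscle markers, 7 had it in skeletal muscle. The exceptions were TBX20, highest in pancreas, and ATP2A1, whose probeset of highest mean was highest in lymph node while its other 2 probesets were highest in skeletal muscle. All measured markers of the other 8 organs were highest in their own organ. The mean of the 3 pancreas markers, at least 13.47 in pancreas, was also raised in some skeletal muscle arrays. It ran there from 3.60 to 9.45 (median 7.77), against at most 6.39 in the remaining organs. The part of such transcripts in the skeletal muscle values was not tested. Pearson's r between arrays of 1 organ, across probesets, was lowest in skeletal muscle (0.889 to 0.962). Brain 1, brain 3 and jejunum 1 had raised values of some skeletal muscle genes, and these are given beside each result that rests on them.

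All 13 troponin probesets differed between the 10 organs in the moderated F test of limma, a call that was made for 54.6% of all probesets. Against the mean of the other 9 organs, 7 probesets of 4 genes (TNNT2, TNNI3, TNNC1 and TNNT1) were called higher in heart, where 7.47% of all probesets were called higher. In skeletal muscle 9 probesets of 5 genes (TNNC1, TNNC2, TNNI2, TNNT1 and TNNT3) were called higher, against 7.06% of all probesets. A stricter step asked for a call with a signal more than 10-fold over the other 9 organs. It was met by 7 of the 13 probesets in heart and by 7 in skeletal muscle, against 0.887% and 0.852% of all probesets. This is a fold of signal and not of transcript. When heart and skeletal muscle were set against each other, 4 probesets were called higher in heart (2.57% of all) and 7 higher in skeletal muscle (1.41% of all).

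**Figure D1:**
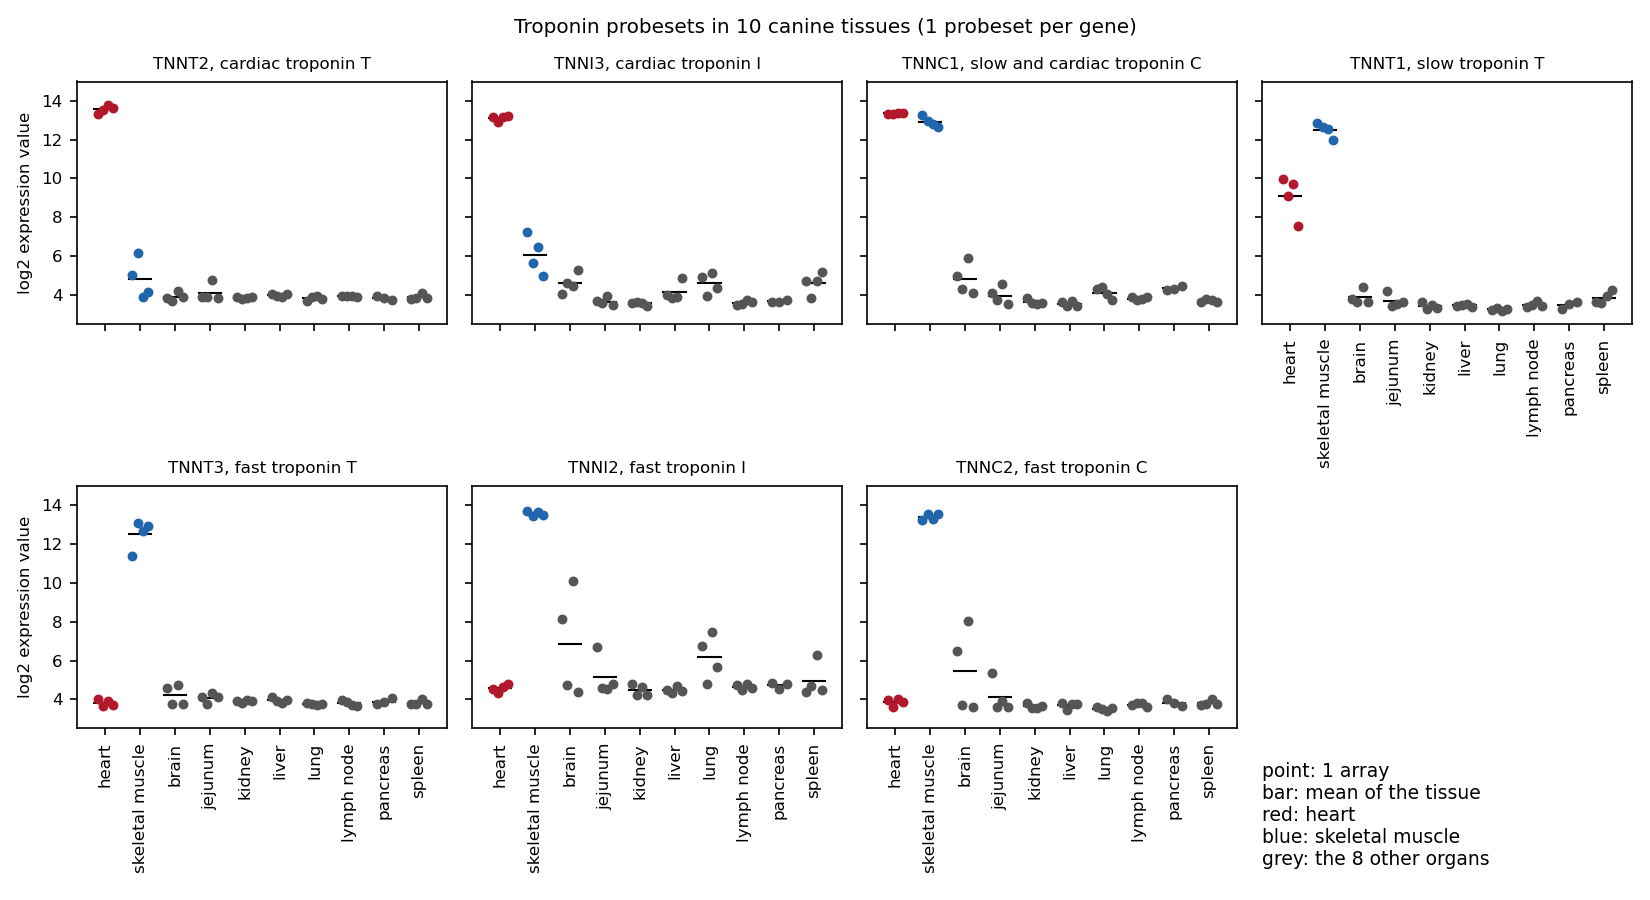
Log2 expression value (vertical axis) of 7 troponin genes in each of 39 arrays, grouped by organ, with the probeset of highest mean for each gene; points are arrays and bars are organ means. TNNT2 and TNNI3 are high in heart, TNNT3, TNNI2 and TNNC2 in skeletal muscle, and TNNC1 and TNNT1 in both, while scattered arrays of brain, jejunum, lung and spleen lie above the rest for TNNI2.

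TNNT2, cardiac troponin T, was high in heart and low everywhere else. With its first probeset the heart arrays read 13.34, 13.52, 13.79 and 13.61 and the skeletal muscle arrays 5.03, 6.15, 3.91 and 4.17. The 31 arrays of the 8 other organs ran from 3.71 to 4.78, with a median of 3.89. Every heart array stood above every array of the other organs, and skeletal muscle 1 and 2 stood above all 31 others while skeletal muscle 3 and 4 lay among them. Heart had a mean of 13.57 ± 0.19 and skeletal muscle of 4.82 ± 1.01 (SD, n = 4 each), a log2 difference of 8.75 (SE 0.26, adjusted p = 6.47e-23, limma). The second and the third TNNT2 probeset gave log2 differences of 8.70 (SE 0.27) and 8.63 (SE 0.24). Over the mean of the other 9 organs the 3 probesets were higher in heart by 9.55, 9.38 and 9.37 on the log2 scale.

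The low TNNT2 signal in skeletal muscle varied between arrays. Skeletal muscle 2 was the highest of its group in all 3 probesets, at 6.15, 5.97 and 6.02. Skeletal muscle exceeded the mean of the 8 non-muscle organs by 0.90 (SE 0.19, adjusted p = 3.83e-04), 0.76 (SE 0.20, adjusted p = 0.00343) and 0.83 (SE 0.18, adjusted p = 3.79e-04) on the log2 scale. Without skeletal muscle 2 these differences were 0.46, 0.22 and 0.36, and none was called (adjusted p = 0.0142, 0.117 and 0.00573). Without skeletal muscle 1 the first was 0.83 and not called (adjusted p = 0.00385), and without skeletal muscle 4 the third was 0.84 and not called (adjusted p = 0.00215). Cardiac marker genes, of which 3 are named here after their values were seen, did not share one order over these arrays. MYBPC3, the cardiac myosin-binding protein, read 4.26, 4.14, 3.93 and 3.85 in skeletal muscle against 11.59 to 11.79 in heart, and MYL7, the atrial light chain, read 3.84, 4.29, 3.76 and 3.96. ANKRD1, a stretch-responsive ankyrin repeat protein, read 7.45, 9.53, 4.01 and 7.37, highest in skeletal muscle 2. The mean of all 9 measured cardiac markers ran from 4.32 to 4.80 in skeletal muscle and from 3.97 to 4.55 in the non-muscle organs and was at least 8.04 in heart, and its part in the TNNT2 signal was not tested.

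TNNI3, cardiac troponin I, was high in heart and was also raised over the non-muscle organs in skeletal muscle. Its probeset read 13.20, 12.93, 13.16 and 13.20 in heart and 7.24, 5.66, 6.46 and 4.95 in skeletal muscle, with 3.45 to 5.28 in the 31 other arrays. All heart arrays were above all others, skeletal muscle 1, 2 and 3 were above the 31 others, and skeletal muscle 4 was not. Heart exceeded skeletal muscle by 7.04 on the log2 scale (SE 0.33, adjusted p = 1.70e-17, limma), and the mean of the other 9 organs by 8.84. Skeletal muscle exceeded the 8 non-muscle organs by 2.02 (SE 0.25, adjusted p = 5.36e-08), and by 1.64 to 2.40 with each skeletal muscle array left out in turn, a call in every case. Against the other 9 organs, a mean that includes heart, the difference was 1.02 and missed the threshold (adjusted p = 0.00141). That value was called without brain 4 (1.04), without liver 4 (1.04) and without skeletal muscle 4 (1.39). With the 8 non-muscle organs as reference, 12 of the 13 troponin probesets were called higher in skeletal muscle and 7 in heart, against 7.93% and 8.11% of all probesets. The skeletal muscle array highest for TNNI3 was number 1 and that for TNNT2 was number 2.

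TNNC1, the calcium-binding subunit shared by heart and slow fibres, was high in both muscle organs. The first probeset read 13.32, 13.33, 13.37 and 13.38 in heart and 13.27, 12.95, 12.80 and 12.67 in skeletal muscle. All 8 arrays stood above the 31 others, which ran from 3.41 to 5.91. The heart arrays did not overlap with those of skeletal muscle, but the difference of 0.43 (SE 0.23) was not called (adjusted p = 0.313, limma), and it was -0.086 after each array was shifted to an equal median of 12 housekeeping genes. That scaling shifts every probeset by -0.30 in heart and by 0.21 in skeletal muscle on average. Over the other 9 organs TNNC1 was higher by 8.37 in heart and by 7.89 in skeletal muscle on the log2 scale (adjusted p = 1.39e-27 and 6.26e-27).

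The second TNNC1 probeset did not separate the muscle organs. Heart arrays read 7.18, 6.39, 7.06 and 7.45 and skeletal muscle arrays 7.84, 5.61, 4.69 and 4.77. Skeletal muscle 1 was above every heart array, and the other skeletal muscle arrays were below all of them. The difference of 1.29 (SE 0.34) was not called (adjusted p = 0.0109). Without skeletal muscle 1 it was 1.997 and was called (adjusted p = 3.81e-11).

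TNNT1, slow troponin T, was highest in skeletal muscle and present at a lower level in heart. The first probeset read 12.86, 12.65, 12.55 and 11.96 in skeletal muscle and 9.99, 9.12, 9.70 and 7.56 in heart. The 31 arrays of the other organs ran from 3.18 to 4.40, so that the 3 levels did not overlap, and heart 4 was the lowest muscle array. Heart was below skeletal muscle by a log2 difference of -3.41 (SE 0.29, adjusted p = 1.10e-10, limma), and above the mean of the other 9 organs by 4.53 (adjusted p = 2.07e-17). The second probeset read 5.68, 4.73, 5.36 and 4.58 in skeletal muscle and 3.44 to 3.79 in heart, a difference of -1.51 (SE 0.14, adjusted p = 2.76e-10). With that probeset heart did not stand out from the 8 non-muscle organs (difference 0.18, SE 0.10, adjusted p = 0.204). In a fit of heart and skeletal muscle alone, which uses only the spread of those 8 arrays, neither TNNT1 difference was called (adjusted p = 0.0109 and 0.0160).

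**Figure D2:**
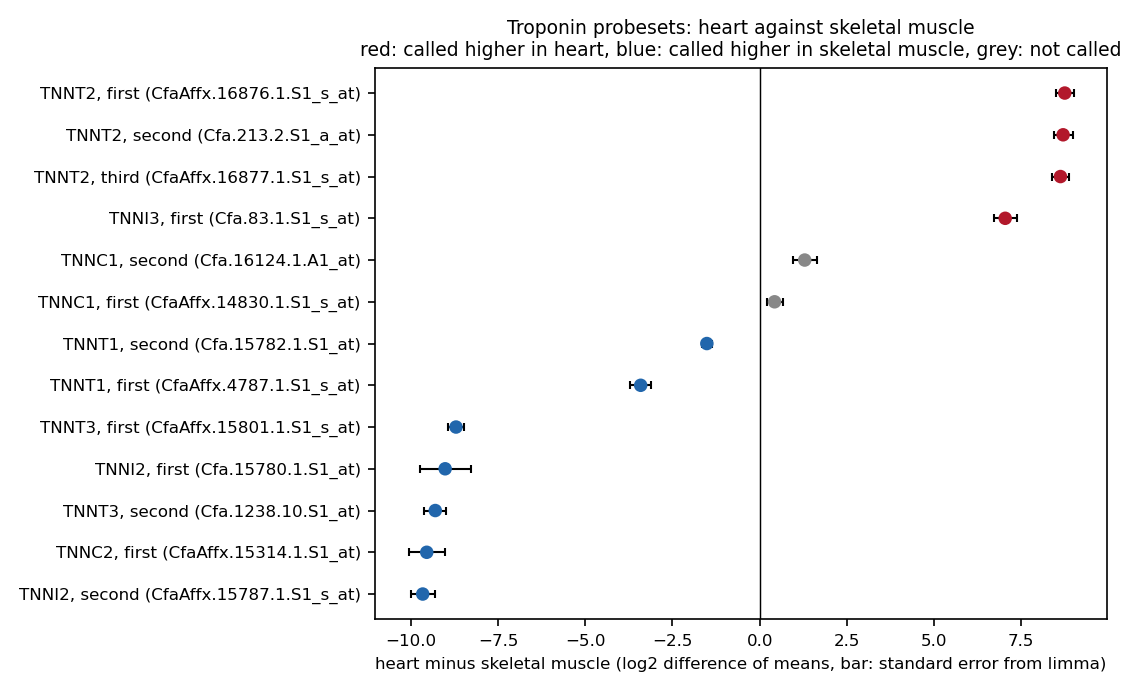
Difference between heart and skeletal muscle (horizontal axis, log2 difference of means of 4 arrays each) for the 13 troponin probesets, with the probesets of a gene ordered as in the text and bars for the standard error from limma. The 4 probesets of TNNT2 and TNNI3 lie between 7.04 and 8.75, both TNNC1 probesets are not called (0.43 and 1.29, the first at -0.086 under housekeeping scaling), and the 7 of TNNT1, TNNT3, TNNI2 and TNNC2 lie below 0, at -1.51 and -3.41 for TNNT1 and from -8.71 to -9.66 for the fast genes.

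The fast genes TNNT3, TNNI2 and TNNC2 were high in skeletal muscle and low in heart. Over their 5 probesets heart differed from the mean of the 8 non-muscle organs by -0.62 to 0.034 on the log2 scale, and none of these differences was called (adjusted p = 0.456 or more). TNNC2, fast troponin C, read 13.23, 13.54, 13.31 and 13.56 in skeletal muscle and 3.98, 3.60, 3.99 and 3.87 in heart. Every skeletal muscle array stood above all other arrays, and heart lay within the range of the 8 other organs. The difference was -9.55 (SE 0.52, adjusted p = 1.27e-15, limma), and heart differed from the mean of the 8 non-muscle organs by -0.11 (SE 0.39, adjusted p = 0.875).

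TNNI2, fast troponin I, behaved alike in the muscle organs. Its first probeset read 13.73, 13.45, 13.67 and 13.48 in skeletal muscle and 4.52, 4.30, 4.64 and 4.79 in heart, a difference of -9.02 (SE 0.73, adjusted p = 3.18e-11). The second read 12.19, 12.97, 13.40 and 13.14 in skeletal muscle and 3.20 to 3.32 in heart, a difference of -9.66 (SE 0.34). No array of any other organ reached the lowest skeletal muscle array in either.

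TNNT3, fast troponin T, was read by 2 probesets. The first gave 11.41, 13.09, 12.68 and 12.94 in skeletal muscle and 3.65 to 4.02 in heart, and the second 12.64, 13.19, 12.86 and 13.18 against 3.45 to 4.02. Skeletal muscle 1 was the lowest of its group in both, and all 4 arrays stood above every array of the other organs. The differences between heart and skeletal muscle were -8.71 (SE 0.22) and -9.30 (SE 0.32), with adjusted p = 2.29e-24 and 4.91e-21. Arrays that did not overlap were found with all heart arrays above all skeletal muscle arrays for 5 of the 13 probesets, against 5.72% of all probesets, and with the reverse for 7, against 5.14%. Heart arrays stood above all arrays of the other 9 organs for 5 probesets (1.03% of all), and skeletal muscle arrays did so for 7 (0.737% of all). All heart and all skeletal muscle arrays stood above those of the 8 other organs for 3 probesets, both of TNNC1 and the first of TNNT1 (1.09% of all probesets).

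The skeletal muscle arrays did not vary alike for slow and fast troponin genes. Skeletal muscle 1 was the highest of the 4 for TNNI3, for both probesets of TNNC1 and for both of TNNT1. It was the lowest for both probesets of TNNT3, for TNNC2 and for the second probeset of TNNI2, whose first was highest there. Some other slow fibre genes were highest and some fast fibre genes lowest in that array, and most were not; those named were chosen after their values were seen. MYH7, the slow and cardiac myosin heavy chain, read 13.01, 12.59, 12.16 and 12.33, and CSRP3, a slow fibre Z-disc protein, 11.24, 9.85, 9.15 and 8.37. MYL1, a fast light chain, read 11.20, 12.69, 12.54 and 12.83, and CASQ1, the calcium store protein of fast fibres, 6.02, 10.06, 9.27 and 9.55. In all, 4 of 10 measured slow fibre genes were highest in skeletal muscle 1 and 4 of 11 fast fibre genes were lowest there. MYBPC1, the slow myosin-binding protein, was lowest in skeletal muscle 1, at 12.21, 12.76, 12.69 and 12.82, and MYOZ2, a calcineurin-binding Z-disc protein, was highest in skeletal muscle 2, at 10.78, 11.63, 10.68 and 10.34. MYH1, a fast myosin heavy chain, was lowest in skeletal muscle 3, at 11.18, 13.34, 8.60 and 13.11, and ACTN3, the fast fibre actinin, was lowest in skeletal muscle 4, at 11.81, 11.32, 11.86 and 11.31. The mean of the slow list was 11.09, 10.93, 11.01 and 10.62 and that of the fast list 9.54, 10.16, 9.96 and 10.27. Skeletal muscle 1 was thus highest in the first mean and lowest in the second, a description of 1 array with no test. That array also had the highest median of the 4, at 4.09 against 3.99 to 4.02. Of genes in neither list, MYF6 was lowest there, at 5.69 against 7.81 to 8.18, and PYGM, at 11.06 against 12.19 to 12.63. ANKRD1 was lowest in skeletal muscle 3.

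**Figure D3:**
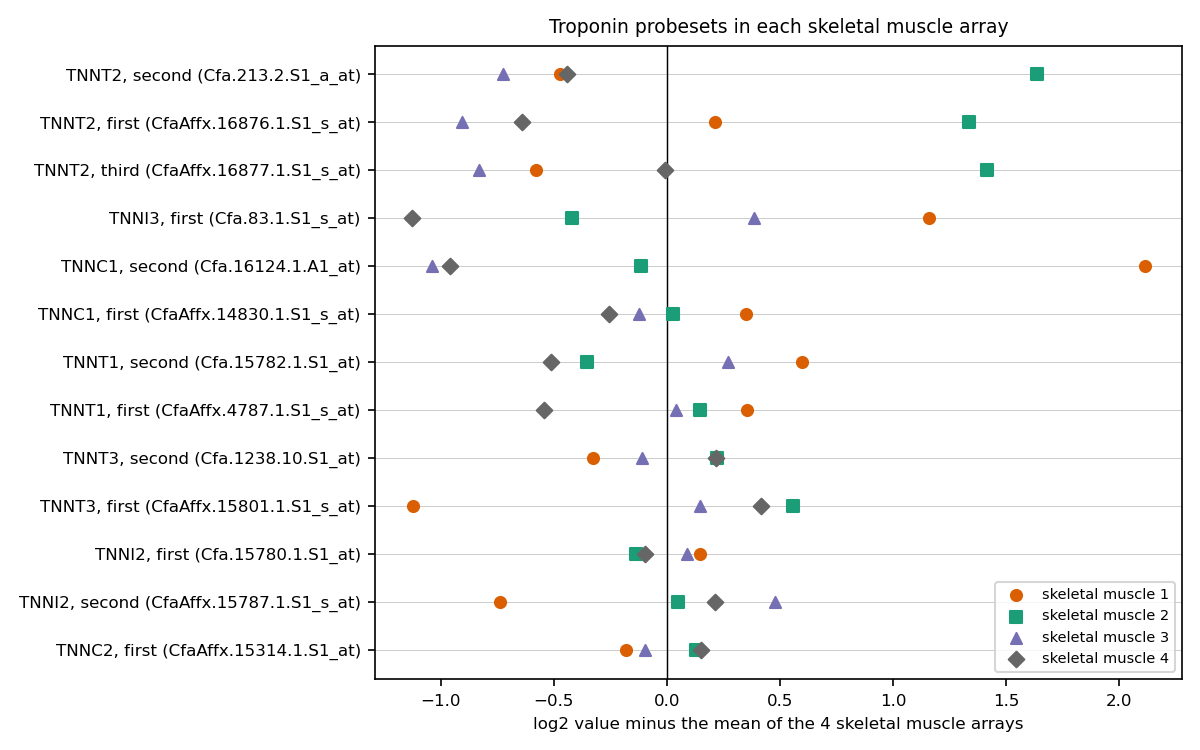
Log2 value of each troponin probeset in each skeletal muscle array, minus the mean of the 4 arrays (horizontal axis). Skeletal muscle 1 lies to the right for TNNI3, TNNC1 and TNNT1 and to the left for TNNT3 and TNNC2, and skeletal muscle 2 lies to the right for all 3 TNNT2 probesets.

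Outside the muscle organs most troponin values lay near the array median, with exceptions that were mainly single arrays of brain. Of the 13 probesets in each of 8 organs, 3 pairs were called higher than the mean of the other 7 non-muscle organs, and all were in brain. Over all probesets and these organs 8.26% of pairs were called, and 11.6% of probesets in brain. TNNC1 with its first probeset was higher by 0.96 (SE 0.18, adjusted p = 4.10e-05), TNNC2 by 1.70 (SE 0.39, adjusted p = 7.56e-04) and TNNT3 with its second probeset by 1.11 (SE 0.24, adjusted p = 3.68e-04). Brain arrays of TNNC1 read 4.99, 4.29, 5.91 and 4.11, those of TNNC2 6.51, 3.73, 8.02 and 3.61, and those of the TNNT3 probeset 4.91, 3.57, 6.39 and 3.55. Brain 3 was the highest and brain 1 the next in each, and brain 2 and brain 4 lay within the range of the other non-muscle organs in each. For TNNC1 that range was 3.41 to 4.53. TNNI2 was split likewise, with 8.15, 4.73, 10.10 and 4.36 for its first probeset, and its mean difference of 1.89 (SE 0.56) was not called (adjusted p = 0.00714).

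Some other skeletal muscle genes were raised in the same brain arrays, and the part of such transcripts in the troponin values was not tested beyond the values given without these arrays. MYLPF, the fast regulatory light chain, read 5.96, 3.93, 8.25 and 4.06 in brain, and MYH2, a fast myosin heavy chain, 5.31, 3.43, 8.08 and 3.46. MYBPC1 read 6.26, 3.69, 6.83 and 4.90. These genes were highest in brain 3 and next in brain 1, but other skeletal muscle genes were not. MYH1 read 5.81, 3.67, 3.81 and 3.58, raised in brain 1 alone. ACTN3 was flat at 3.99 to 4.02, and MYF6, a muscle transcription factor, ran from 3.70 to 3.83. CASQ1 ran from 3.58 to 3.87 and MYBPC2, of the fast fibre list, from 3.88 to 4.33. The mean of the 8 measured skeletal muscle markers was 4.84, 4.44, 5.18 and 4.51 in the brain arrays, against 8.67 to 9.52 in skeletal muscle and 5.05 to 5.32 in heart. It was 4.24 to 4.78 in jejunum, 4.41 to 4.598 in pancreas, 4.27 to 4.53 in lymph node and at most 4.40 in the rest, so that brain 2 and brain 4 lay among the other organs and brain 1 and brain 3 above all non-muscle arrays. Jejunum 1 was also above its group for TNNC2, at 5.36 against 3.58 to 3.92, and for MYLPF, at 4.53 against 3.63 to 4.16.

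Without brain 1, brain 3 and jejunum 1, a choice made after the data were seen, none of the 3 brain calls was left. The differences were then 0.34 for TNNC1 (adjusted p = 0.127), -0.035 for TNNC2 (adjusted p = 0.848) and 0.087 for TNNT3 (adjusted p = 0.622). Without brain 3 alone they were 0.59, 0.85 and 0.52, and none was called (adjusted p = 0.00185, 0.0379 and 0.0118). Without brain 1 alone only TNNC1 was called, with TNNC2 at 1.36 and TNNT3 at 1.01 (adjusted p = 0.0152 and 0.00436), and without brain 2 or brain 4 alone there were 5 calls. The TNNC2 value also lost its call by a small margin, at 1.68 to 1.70 with adjusted p up to 0.00108, without jejunum 2, 3 or 4, kidney 2 or 3, liver 2, lung 3, lymph node 4, pancreas 2 or 3, or spleen 1 or 2. The counts of troponin probesets called higher in heart and in skeletal muscle than in the other 9 organs were 7 and 9 without brain 1, brain 3 and jejunum 1, as with all arrays.

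**Figure D4:**
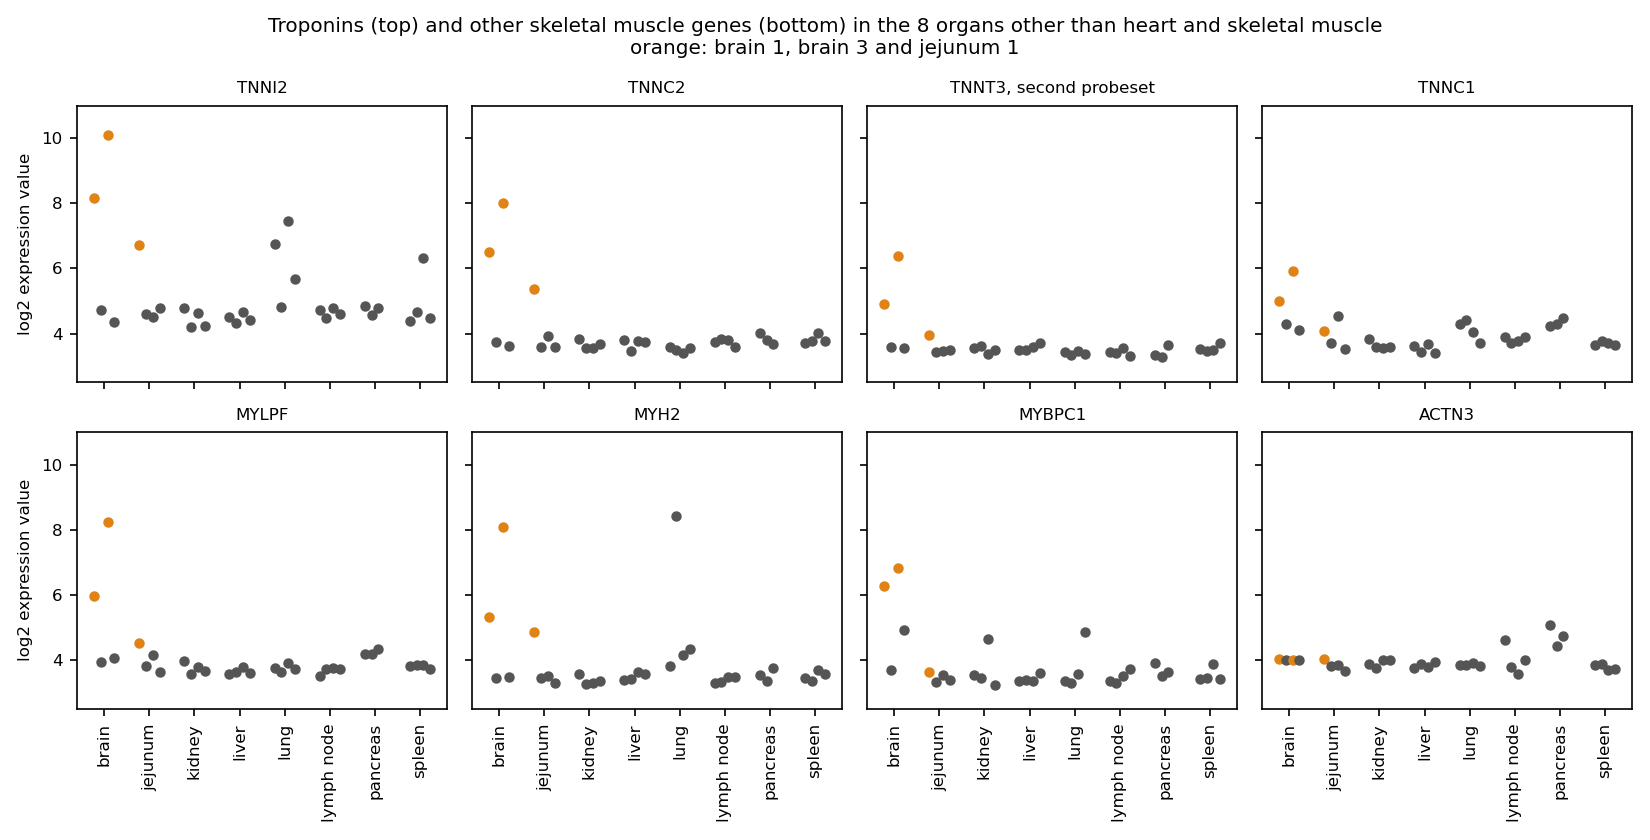
Log2 expression value (vertical axis) of 4 troponin genes (top) and 4 other skeletal muscle genes (bottom) in each of the 31 arrays of the 8 organs other than heart and skeletal muscle; orange marks brain 1, brain 3 and jejunum 1. Brain 1 and brain 3 are high for TNNI2, TNNC2, TNNT3, MYLPF, MYH2 and MYBPC1 and not for ACTN3, and lung is raised for TNNI2 in arrays where MYLPF is not.

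TNNI2 was raised in some lung arrays. Lung arrays read 6.75, 4.81, 7.46 and 5.67 with the first probeset, and the lowest lay within the range of pancreas, 4.56 to 4.85. Lung differed from the other 7 non-muscle organs by 1.14 (SE 0.56) with all arrays, which was not called (adjusted p = 0.134, limma), where 6.56% of all probesets were called higher. It differed by 1.54 (SE 0.28) without brain 1, brain 3 and jejunum 1, which was called (adjusted p = 8.74e-05). These arrays were chosen after the data were seen and read high for this probeset, at 8.15, 10.10 and 6.71. Leaving them out lowers both the reference and the SE, which favours a call in lung, so this call cannot decide whether lung is raised. The second TNNI2 probeset read 3.89, 3.36, 3.91 and 3.25 in lung, highest in the same 2 arrays, with a difference of 0.12 (adjusted p = 0.742), or 0.29 without the 3 arrays (adjusted p = 0.0792). TNNC2 ran from 3.41 to 3.60 and MYLPF from 3.64 to 3.90 in lung, while PVALB, parvalbumin, was high there in all arrays, at 8.90, 8.93, 8.78 and 7.48. The mean of the 11 fast fibre genes was 4.57, 4.92, 4.56 and 4.39 in lung, against 4.17 to 4.42 in heart, 4.40 to 4.604 in pancreas and 4.07 to 4.25 in spleen. It was 4.39 to 5.56 in brain and 4.12 to 4.77 in jejunum, so that lung did not stand apart. Of these genes only PVALB and MYH2 had their highest non-muscle mean in lung, while MYH1, MYH4 and MYL1 had their lowest there. MYH2 read 3.81, 8.42, 4.14 and 4.34, high in lung 2, the array with the lowest TNNI2 value in lung with the first probeset. Spleen 3 read 6.31 with the first TNNI2 probeset against 4.37 to 4.67 in the other spleen arrays. Jejunum 1 read 6.71 with it, and the next jejunum array 4.78. TNNI3 was also highest within lung in lung 3 and lung 1, at 5.15 and 4.94.

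The highest non-muscle values of TNNI3 were 5.28 in brain 4, 5.16 in spleen 4 and 5.15 in lung 3. For TNNT1 the highest were 4.40 in brain 3, 4.23 in spleen 4 and 4.22 in jejunum 1, with the first probeset.

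Genes that work with troponin were described from lists of the thin filament, of slow and fast fibre genes and of fibre type regulators. The 7 measured troponin genes had a median difference between heart and skeletal muscle of -3.41, with 2 called higher in heart and 4 in skeletal muscle, while the median was -0.047 over all probesets and 0.18 over 12 housekeeping genes. The share of all probesets called was 2.57% for higher in heart and 1.41% for higher in skeletal muscle, and the counts of each list that follows stand beside these shares. Of 20 thin filament partners, 2 were called higher in heart and 4 in skeletal muscle, with a median of 0.019. ACTC1, cardiac actin, was higher in heart by 6.06 and NEBL, the cardiac nebulin relative, by 1.21. LMOD2, an actin filament elongation factor, had a difference of 1.19 and was not called. For NEBL and LMOD2, as for TPM1, TPM4 and LMOD3, another probeset was brighter in the muscle organs. Its difference is not given, and the counts and median hold for the probeset of highest mean over all arrays. TMOD4, a skeletal tropomodulin, TPM2, beta tropomyosin, and NEB, nebulin, were lower in heart, with differences of -7.36, -6.08 and -5.41.

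Of 11 fast fibre genes 9 were called between heart and skeletal muscle, all of them higher in skeletal muscle, and the median was -6.96. MYH2, MYLPF and MYL1 had differences of -9.55, -9.35 and -8.21, and MYL1 has another probeset, brighter in the muscle organs, whose difference is not given. ATP2A1, the fast calcium pump, stood at -0.057 with the probeset of highest mean and PVALB at -1.24, and neither was called, while MYH4, a fast myosin heavy chain, was called at -1.03. The other 2 ATP2A1 probesets, looked up after the values were seen and brightest in skeletal muscle, had differences of -9.004 and -8.48 (adjusted p = 1.11e-24 and 2.23e-18). Of 10 measured slow fibre genes, 4 were called higher in heart and 3 in skeletal muscle, with a median of 0.62. CSRP3, MYOZ2 and MYH7B, a relative of MYH7, were higher in heart by 2.85, 1.82 and 1.29. MYBPC1, MYL6B, a slow light chain, and ANKRD2, a stretch-responsive protein, had differences of -9.07, -4.62 and -3.53. Of 15 measured fibre type regulators 4 were called, all of them higher in skeletal muscle, with a median of -0.31. MYF6, MEF2C, a MADS-box factor, and TBX15, a T-box factor of glycolytic fibres, had differences of -3.52, -2.75 and -2.27. PPARGC1A, the oxidative coactivator, MEF2A and PROX1 had 1.80, 0.77 and 0.71, none of which was called.

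**Figure D5:**
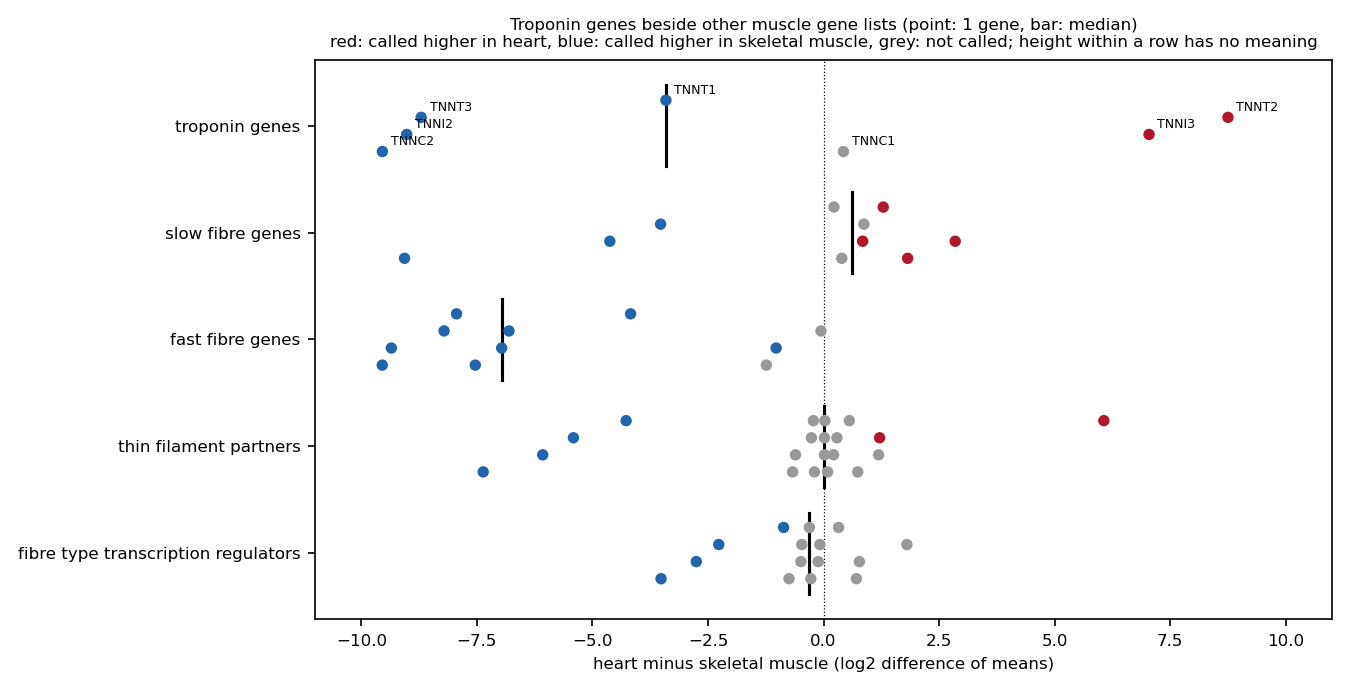
Difference between heart and skeletal muscle (horizontal axis, log2 difference of means) for the 7 measured troponin genes and for the genes of 4 lists, with 1 point per gene and a bar at the median of each list. The troponin genes split into TNNT2 and TNNI3 on the right, TNNC1 near 0 and 4 genes on the left, and the median of the fast fibre genes lies at -6.96.

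The likeness of patterns was described by Pearson's r over the 10 organ means, among 5135 genes whose organ means spanned at least 2 on the log2 scale. These 10 points come from arrays normalised together, and in every troponin gene heart or skeletal muscle is the highest of them. TNNI3 was most like TNNT2 (r = 0.980), followed by LOC482182, SH3RF2, ANKRD1 and LOC612108. TNNT2 was most like LOC482182 (r = 0.997), then MYBPC3, SERPINB2, SH3RF2 and LOC612108. TNNC1 was most like MB, myoglobin (r = 0.998), then MYL2, the slow and ventricular light chain, MYH7, FRMD3 and CKMT2, mitochondrial creatine kinase. TNNT1 was most like RAPSN, the acetylcholine receptor clustering protein (r = 0.997), then STYXL2, KLHL41, TXLNB and KLHL40.

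Among the fast genes TNNC2 was most like MYLPF (r = 0.999), then MYH3, MYBPC1, MYH1 and CLCN1, the muscle chloride channel. TNNT3 was most like MYH1, then AMPD1, TRIM72, PPP1R27 and ANO5, and TNNI2 was most like MYH2 (r = 0.995), then MYBPC1, MYLPF, TNNC2 and CLCN1. Within the family TNNC2 had r = 0.990 with TNNT3 and 0.979 with TNNI2, whereas TNNT1 had r = 0.827 with TNNT3 and 0.535 with TNNT2. These likenesses take in the arrays brain 1, brain 3 and jejunum 1, where several fast genes were raised. They were not all raised in the same arrays, with MYH1 at 5.81 in brain 1 and 3.81 in brain 3. Without the 3 arrays, a choice made after the data were seen, MYH2 was still first for TNNI2 (r = 0.9988), although it was high in lung 2 and TNNI2 in lung 1 and 3, and CLCN1 went from place 5 to place 40 (r = 0.949). For TNNC2, MYLPF went from place 1 to place 5 (r = 0.999), MYH3 from place 2 to place 32 (r = 0.977) and CLCN1 from place 5 to place 34 (r = 0.976). TNNC2 then had r = 0.999 with TNNT3 and 0.980 with TNNI2. The first gene of TNNT1, TNNT2 and TNNI3 stayed first, that of TNNC1 became MYH7, and MYH1 went from place 1 to place 5 for TNNT3 (r = 0.9988).

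The troponin T and troponin I genes examined stand in pairs on the chromosome. In the RefSeq gene table of a more recent dog assembly, which was used only for the order of genes, TNNI3 and TNNT1 had 0 protein-coding genes between them, TNNI1 and TNNT2 had 1, and TNNI2 and TNNT3 had 2. The pairs did not always share a pattern. TNNI2 and TNNT3 were both high in skeletal muscle and low in heart (r = 0.965 over organ means), while TNNI3 was higher in heart than in skeletal muscle by a log2 difference of 7.04 and its neighbour TNNT1 was lower there by a log2 difference of -3.41 (r = 0.635).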

How the data were processed

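RNA of each organ sample was made into cRNA, which was hybridised to 1 Affymetrix Canine 2.0 array. The authors processed the scanner files in Partek, with adjustment for probe sequence, RMA background correction, quantile normalisation over arrays and median polish, left out 1 pancreas array, and deposited log2 values for 39 arrays. Such scaling makes values relative within an array, and no detection calls were used here.

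All 42860 probesets were fitted with limma 3.58.1 in R 4.3.3, with a mean per organ and moderated variances. The authors' analysis of variance also held scan date as a random factor. Scan date is not in the labels and was left out of every fit here, so its part in the differences was not tested. Contrasts were each organ against the mean of the other 9, heart minus skeletal muscle, each muscle organ against the 8 non-muscle organs, and each of these 8 against the other 7. P-values were adjusted by Benjamini-Hochberg over all probesets at a false discovery rate of 0.001. For arrays the number of samples limits precision.

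Named were all troponin probesets, the 5 genes most like each troponin gene, and from each list (thin filament partners, slow and fast fibre genes, fibre type regulators) the 3 largest and 3 smallest differences between heart and skeletal muscle. Housekeeping genes served for scaling. The probeset with the highest mean over 39 arrays stood for a gene. Members and lists were chosen with earlier results of these data known. Gene names came from the platform annotation, where 439 probesets with several symbols were not used as members. No sequences were used. The fit was checked on simulated data. Alternatives covered the variance estimate, scaling, a filter on dim probesets, the reference organs, the replicate number as a block, and each array left out.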

Additional observations from a re-analysis of the deposited data

Results flagged for a closer look

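Single arrays that stood apart from the rest of their organ were sought in 117 groups of 4 arrays by Dixon's ratio, of which chance alone gives about 1 in 20. There were 13, and 5 of them were in spleen 3. In spleen 3 the highest values of the organ were 6.31 and 3.6 for the probesets of TNNI2 (next 4.67 and 3.43), 4.1 for the first probeset of TNNT2 (next 3.84), 4.01 for the first probeset of TNNT3 (next 3.78) and 4.02 for TNNC2 (next 3.76). MYLPF read 3.84 in that array and 3.71 to 3.83 in the other spleen arrays. Some other muscle genes, named after their values were seen, were also highest there. CSRP3 read 4.15 against 3.43 to 3.48, MYH7 4.31 against 3.83 to 3.89 and MYBPC1 3.86 against 3.42 to 3.43. ACTN3, ATP2A2, MYL3, MYL4 and PYGM were not highest there. Spleen 3 also had the highest array median of its organ, at 4.039 against 3.982 to 3.996. Apart from the first TNNI2 probeset, its flagged values lay near the array median, with small gaps to the next.

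In jejunum 1 the first TNNI2 probeset stood at 6.71 with the next at 4.78, and the second TNNT3 probeset at 3.94 with the next at 3.49. In jejunum 3 TNNT2 stood at 4.78 and 4.3 in the first and the third probeset, with the next at 3.9 and 3.77. Skeletal muscle 2 read 5.97 for the second TNNT2 probeset, with the next at 3.9. TNNI3 was lowest in heart 2 at 12.93 with the next at 13.16, and highest in liver 4 at 4.86 with the next at 4.02. TNNC1 with its first probeset was highest in kidney 1 at 3.83, with the next at 3.58. The part of other transcripts in these values was not tested.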

How the results depend on the processing

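All 13 troponin probesets passed the F test in the 48 other settings run for it, and 7 were called higher in heart than in the other 9 organs in the 49 run for that count, of which 39 left out 1 array. The count higher in skeletal muscle ran from 9 to 12, with 12 against the 8 non-muscle organs. Between heart and skeletal muscle 4 to 5 were higher in heart and 5 to 7 in skeletal muscle.

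The number of troponin probeset and organ pairs called in non-muscle organs was least stable. It was 3 with all arrays, 0 to 5 with each array left out in turn, 1 without brain 1, brain 3 and jejunum 1 together, and 11 with housekeeping scaling, which shifts brain by 0.51 and pancreas by 0.76. TNNC2 in brain turned to -0.035 without the 3 arrays. TNNC1 (first probeset) between heart and skeletal muscle turned to -0.086 with housekeeping scaling. TNNT2 (first probeset) in skeletal muscle against the other 9 organs, -0.17 and not called, turned to 0.044 with housekeeping scaling, 0.90 against the 8 non-muscle organs, 0.13 without skeletal muscle 3 and 0.044 without skeletal muscle 4, and was -0.62 without skeletal muscle 2. Apart from the change of reference and of arrays, the cause was not tested.

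The organs came from 4 dogs, but replicate numbers are not said to mark dogs. Deviations of heart and skeletal muscle arrays of the same number had r over 0.1 in 2 of 4 pairs, and over all organs in 101 of 171 pairs (median 0.14), against 70 of 513 pairs of other numbers (median -0.049). Not every pair being over 0.1, the numbers were not taken as pairs in the main fit, although same numbers deviated together more often. This rule cannot show that the same number is not the same dog. The main p-values leave the dog out, and fits with a replicate block follow. With the replicate block as a fixed factor the TNNC1 differences were 0.43 (adjusted p = 0.226) and 1.29 (adjusted p = 0.0120). No fixed block changed a count. With a random block TNNI3 in skeletal muscle against the other 9 organs was called (1.02, adjusted p = 9.53e-04), and that count was 10. It was also called with housekeeping scaling (1.23, adjusted p = 1.73e-04), with quantile normalisation applied again (1.21, adjusted p = 2.40e-04) and with the filter on dim probesets (1.02, adjusted p = 7.47e-04).

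Probesets near the array median have no detection call, so low values were not read as absence, and groups of 4 arrays limit the precision of every value.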
